A study of Homo sapiens with 24 samples.

Results

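Clone 66 and clone 75 are lines in which CRISPR was directed at the gene DPPA3, both made from SW1222, a long-established line of human colorectal cancer cells. Their expression profiles were compared directly with each other, clone 75 minus clone 66, with no control line in the difference. The difference is taken between 4 of the 24 arrays of the series, chosen by their labels, with 2 arrays per clone, while its error is estimated from the spread within all 9 groups. It covers the 17448 genes that have a probe set assigned to that gene alone.

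Both clones carry the genotype label CRISPR DPPA3, were untreated and were grown in 3D culture at 21% oxygen. The line with a scrambled guide RNA, also untreated and in 3D, had 2 arrays and is given beside the clones for reference. The remaining arrays came from SW1222 lines with a control shRNA or a DPPA3 shRNA (3 arrays each, untreated, 3D) and from a doxycycline-induced DPPA3 line and its control line. The latter pair was grown in 3D with 5 µg/ml doxycycline for 5 days or in 2D with the drug for 4 hours, with 3 arrays per line and condition. Each knockout line is a single clone. The labels do not say whether the 2 arrays of a clone came from separate cultures, so the p-values reflect array-to-array spread, which may be technical.

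DPPA3, also called STELLA or PGC7, encodes a small protein of oocytes, early embryos and primordial germ cells. It binds UHRF1, the factor that brings the maintenance methyltransferase DNMT1 to newly replicated DNA, and so bears on DNA methylation. A clone descends from a single cell of a population that can be genetically and epigenetically mixed. In a comparison of one clone with another, what the edit brought and what the founding cell carried cannot be told apart.

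The clones differed in 506 genes (2.90% of those tested) at a Benjamini-Hochberg adjusted p under 0.05 in limma. Of these, 161 were higher in clone 75 (0.923%) and 345 were lower (1.98%). The difference reached at least 2-fold (1 on the log2 scale) in 103 genes, 25 higher and 78 lower, and the median size over the 506 was 0.74 log2. The median difference over all genes was 0.01. The values of both arrays of a clone lay apart from both of the other clone in all 506, as they did in 7292 of all genes (41.8%). With 1 array left out, the count was 263 without clone 66 replicate 1, 270 without clone 66 replicate 2, 269 without clone 75 replicate 1 and 259 without clone 75 replicate 2. In these cases the lone array was assumed to vary like the other groups.

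Replicate arrays were close to each other. Arrays of the same clone correlated across genes at r = 0.993 in both clones (genes are not independent replicates), and 3 genes in clone 66 and 5 in clone 75 differed by 1 log2 or more between replicates. Between arrays of different clones, 116 to 135 genes differed by that much. The 13 markers of colon epithelium all lay above the median gene in the 6 arrays of the knockout experiment, with a mean level of 8.91 to 9.15 log2. Of these, KRT20 (-0.97 log2, limma adjusted p = 0.000209) and CEACAM5 (-0.70, adjusted p = 0.000179) passed, both lower in clone 75. Of the markers of other cells, 1 of 10 for fibroblasts, 2 of 9 for leukocytes and 1 of 7 for endothelium lay above it, with summed levels over each list of 28.8 to 29.5, 26.9 to 28.5 and 19.9 to 20.7. Among the leukocyte markers CD68, a lysosomal protein, was lower in clone 75 (difference -1.08 log2, adjusted p = 5.38e-05). The part of such cells in the results was not tested, and in bulk RNA fewer cells of a type and less RNA per cell cannot be told apart.

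**Figure D1:**
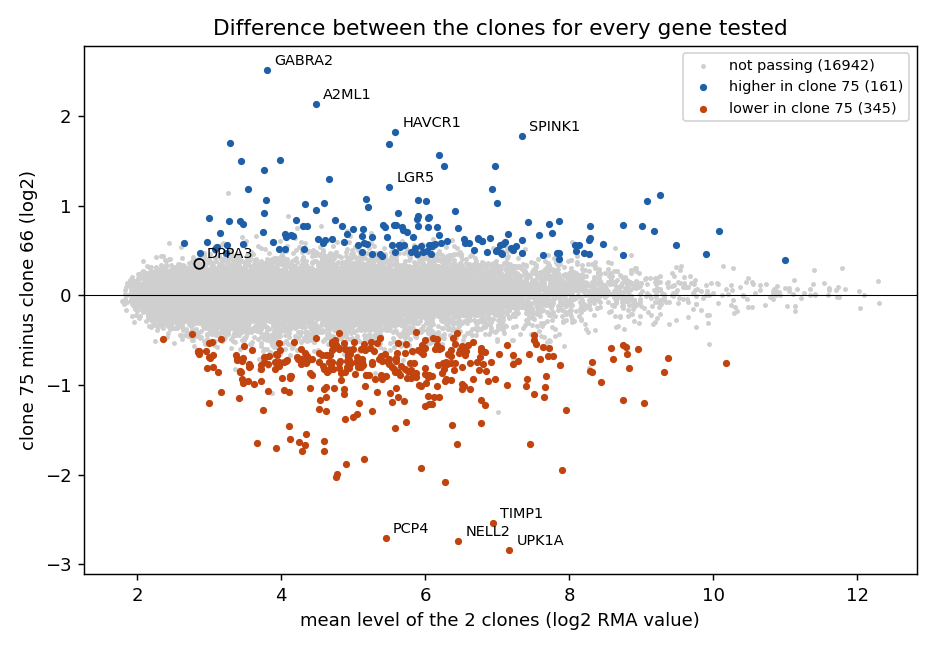
Difference between the clones (clone 75 minus clone 66, log2) against mean level (log2 RMA value) for every gene tested. Passing genes are coloured by direction, and the named ones reach from 2.51 log2 for GABRA2 to -2.84 log2 for UPK1A.

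The targeted gene itself was dim in both clones and in the control. DPPA3 read 2.55 and 2.82 log2 in clone 66, 3.19 and 2.89 in clone 75, and 2.68 and 3.03 with the scrambled guide. Clone 75 was above clone 66 in both arrays, but the scrambled arrays overlapped both clones, and between 14.6% and 31.6% of all genes gave a lower signal than DPPA3 in the clone arrays. The difference of 0.35 (SE 0.37) did not pass (adjusted p = 0.913). At this level the arrays do not check the knockout, and an edit that leaves the transcript in place would not show.

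Of the other genes that were always named, LGR5 passed and is given below, and the rest did not pass. UHRF1 read 4.47 and 4.15 in clone 66 and 3.74 and 4.18 in clone 75, so the clones overlapped (difference -0.35, SE 0.21, adjusted p = 0.672). DNMT1 gave a difference of 0.02 (SE 0.11), HIF1A, the oxygen-regulated transcription factor, 0.17 (SE 0.17), MKI67, a proliferation marker, 0.01 (SE 0.13), and CDKN1A, a cell-cycle inhibitor, -0.06 (SE 0.19). VEGFA, an angiogenic HIF target, read 7.89 and 7.76 in clone 66 and 8.34 and 8.11 in clone 75. Its arrays did not overlap, but the difference of 0.40 (SE 0.17) did not pass (adjusted p = 0.362).

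Among the genes lower in clone 75, UPK1A led. It encodes a uroplakin, a tetraspanin of the urothelial surface. UPK1A read 8.61 and 8.56 log2 in clone 66, 5.79 and 5.70 in clone 75, and 7.59 and 7.39 with the scrambled guide. The control thus lay between the clones, with clone 66 above it and clone 75 below it (difference -2.84, SE 0.14, adjusted p = 1.1e-12). NELL2, a secreted glycoprotein with EGF-like domains, read 7.80 and 7.85 in clone 66, 5.19 and 4.98 in clone 75, and 6.89 in both scrambled arrays (-2.74, SE 0.23, adjusted p = 1.73e-08). PCP4, a calmodulin-binding peptide, showed the same order, with 6.80 and 6.82, 3.85 and 4.34, and 5.56 and 5.36 in the control (-2.71, SE 0.21, adjusted p = 6.08e-09).

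TIMP1 and CST1, both secreted protease inhibitors, were lower in clone 75, whereas 2 other protease inhibitors, A2ML1 and SPINK1, were among the highest genes. TIMP1, an inhibitor of matrix metalloproteinases, read 8.25 and 8.18 in clone 66 and 5.75 and 5.60 in clone 75, with the scrambled arrays between them at 6.91 and 6.68 (difference -2.54, SE 0.21, adjusted p = 1.25e-08). CST1, a cysteine protease inhibitor of the cystatin family, read 6.98 and 7.66 in clone 66, 5.36 and 5.12 in clone 75, and 7.59 and 7.57 in the control (-2.08, SE 0.28, adjusted p = 2.15e-05). Here the control lay within the range of clone 66, and clone 75 was the clone apart. CST1 has close paralogs, so its signal may hold theirs.

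Enzymes and transporters followed. GSTA1, a glutathione transferase with near-identical paralogs, read 5.79 and 5.75 in clone 66, 3.63 and 3.92 in clone 75, and 4.39 and 4.63 in the control (difference -1.99, SE 0.23, adjusted p = 4.03e-06). CYP4X1, a cytochrome P450, read 6.87 and 6.93 against 5.00 and 4.95, with 6.56 and 6.45 in the control (-1.93, SE 0.16, adjusted p = 2.35e-08). In both genes the clones lay on opposite sides of the scrambled arrays. These were nearer to clone 75 for GSTA1 and nearer to clone 66 for CYP4X1. The lines with control shRNA and DPPA3 shRNA were near clone 75 for GSTA1 (means 3.97 and 3.65). For CYP4X1 they were nearer to clone 66 (6.51 and 6.85). The sodium-proton exchanger SLC9A4 (-1.88), the urea transporter SLC14A1 (-1.82), the calcium channel subunit CACNA1E (-1.73), the aldo-keto reductase AKR1E2 (-1.70), the sialyltransferase ST8SIA6 (-2.03) and RAB3B (-1.66), a small GTPase of vesicle release, were also lower. PEG10, an imprinted gene derived from a retrotransposon, read 5.50 and 5.43 in clone 66 and 3.64 and 3.81 in clone 75, with the control at 4.22 and 4.01 (-1.74, SE 0.20, adjusted p = 2.49e-06).

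Among the genes higher in clone 75, GABRA2 led. It encodes a subunit of the GABA-A receptor, a chloride channel of neurons. GABRA2 read 2.49 and 2.60 in clone 66, 5.05 and 5.07 in clone 75, and 3.69 and 3.59 with the scrambled guide, so that the control again lay between the clones (difference 2.51, SE 0.13, adjusted p = 2.65e-12). A2ML1, a protease inhibitor of the alpha-2-macroglobulin family, read 3.45 and 3.39, 5.67 and 5.44, and 4.77 and 4.33 in the control (2.13, SE 0.17, adjusted p = 8.99e-09). The chromatin organiser SATB1 read 2.67 and 2.72 in clone 66, 4.22 and 4.16 in clone 75, and 3.24 and 3.11 in the control (1.50, SE 0.14, adjusted p = 1.16e-07). For SATB1, GABRA2 and A2ML1 clone 66 lay below the level of the median gene, and clone 75 above it. In the lines with control shRNA and DPPA3 shRNA, GABRA2 (means 2.65 and 2.37) and SATB1 (2.89 and 2.62) were near clone 66. A2ML1 was 4.44 with control shRNA but 5.85 with DPPA3 shRNA, above both arrays of clone 75. The positions of these genes thus depend on the line taken as control.

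In a further group clone 66 was far below the scrambled guide and clone 75 was nearer to it. SPINK1, a secreted trypsin inhibitor, read 6.45 and 6.47 in clone 66, 8.19 and 8.27 in clone 75, and 8.74 in both scrambled arrays (difference 1.77, SE 0.20, adjusted p = 2.32e-06). HAVCR1, a cell surface receptor for phosphatidylserine, read 4.62 and 4.73, 6.63 and 6.35, and 6.65 and 6.24 in the control (1.82, SE 0.23, adjusted p = 8.71e-06). NT5E, the ectonucleotidase CD73, read 6.27 and 6.38, 7.50 and 7.53, and 7.62 and 7.59 in the control (1.19, SE 0.15, adjusted p = 1.78e-05). In all 3 genes clone 66 lay below both the scrambled arrays and clone 75, while clone 75 was itself under both scrambled arrays for SPINK1 and NT5E. SPINK1 was as low as in clone 66 in the lines with control shRNA (mean 6.35) and DPPA3 shRNA (mean 6.30), so its position depends on the line taken as control. The transcription factor IRF8 (1.69), the ileal bile acid binding protein FABP6 (1.44), the prostaglandin D2 receptor PTGDR (1.51), the carbonic anhydrase-related protein CA8 (1.70), the cadherin family member CDHR1 (1.44), LRP12 (1.40) and the transporter SLCO3A1 (1.30) were higher in clone 75 as well. For CDHR1 and CA8 the scrambled guide (means 5.99 and 3.21) was nearer to clone 66 (5.54 and 2.45) than to clone 75 (6.98 and 4.14). The mean of clone 66 was below the level of the median gene for CA8, PTGDR, LRP12 and SLCO3A1. RNASE2CP (1.57) is a ribonuclease pseudogene whose probes may also read its functional relatives.

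**Figure D2:**
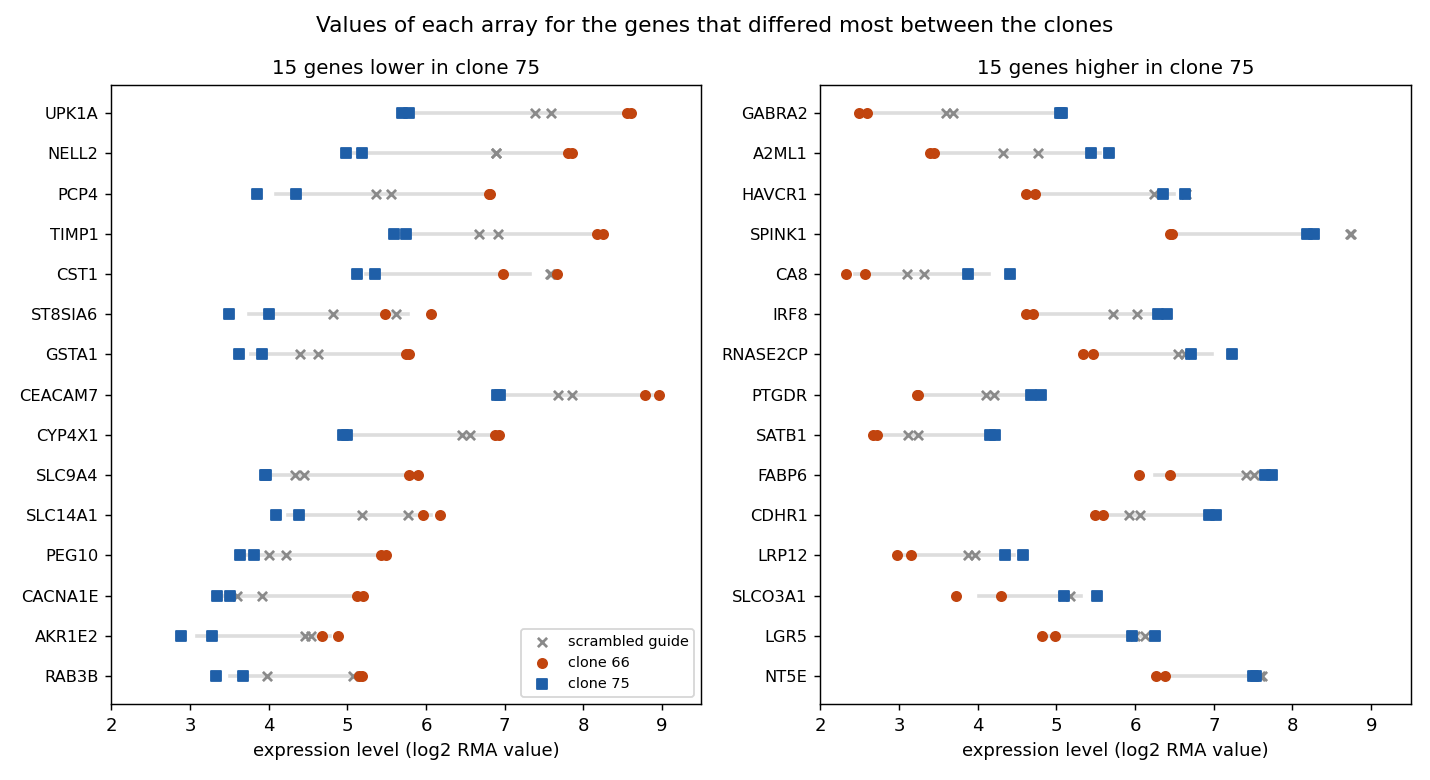
Expression level (log2 RMA value) of the 15 genes lowest and the 15 highest in clone 75 relative to clone 66, with a point for each array of clone 66, clone 75 and the scrambled guide. The grey lines join the clone means. UPK1A, NELL2, PCP4, GABRA2 and A2ML1 show the control between the clones, whereas SPINK1, HAVCR1 and NT5E show clone 66 far below the control and clone 75 nearer to it.

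The position of each clone was set against the range of the 8 other untreated 3D arrays (2 scrambled guide, 3 control shRNA, 3 DPPA3 shRNA), as a description. Of the 345 genes lower in clone 75, clone 66 lay within that range and clone 75 below it in 126, clone 66 above and clone 75 within in 111, and the clones on either side of it in 84. Of the 161 higher genes, clone 66 lay below and clone 75 within in 64, the clones on either side in 46, and clone 75 above with clone 66 within in 38. Of the 506 genes, 263 had the clones on opposite sides of both scrambled arrays, 178 with clone 66 above and 85 with clone 75 above. The share of all genes in these positions is not given here. Picking genes by a large difference between the clones favours positions on either side of the control.

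The 250 bases before the start of UPK1A, TIMP1, GABRA2 and A2ML1 are shown because DPPA3 bears on the methylation of CG sites and because these genes differ widely in how many such sites lie there. They are RefSeq promoter sequences on GRCh38.p14, on the strand of the gene, 5′ to 3′, with each CG in capitals.
UPK1A, chr19:35666267-35666516, plus strand: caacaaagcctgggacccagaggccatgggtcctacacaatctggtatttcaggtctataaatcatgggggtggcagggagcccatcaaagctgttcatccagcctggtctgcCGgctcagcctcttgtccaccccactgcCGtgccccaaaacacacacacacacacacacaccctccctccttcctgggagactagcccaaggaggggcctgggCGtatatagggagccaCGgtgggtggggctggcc
TIMP1, chrX:47582186-47582435, plus strand: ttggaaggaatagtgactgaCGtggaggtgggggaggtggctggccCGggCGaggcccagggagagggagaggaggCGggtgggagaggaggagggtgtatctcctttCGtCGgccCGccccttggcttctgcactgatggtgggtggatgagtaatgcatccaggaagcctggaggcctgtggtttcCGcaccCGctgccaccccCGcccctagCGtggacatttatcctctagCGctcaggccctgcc
GABRA2, chr4:46390301-46390550, minus strand: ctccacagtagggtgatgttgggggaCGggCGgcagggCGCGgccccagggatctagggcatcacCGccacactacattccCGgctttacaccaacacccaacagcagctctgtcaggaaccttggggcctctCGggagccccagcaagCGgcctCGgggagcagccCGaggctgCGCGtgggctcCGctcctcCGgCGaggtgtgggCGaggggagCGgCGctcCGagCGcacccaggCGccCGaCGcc
A2ML1, chr12:8822371-8822620, plus strand: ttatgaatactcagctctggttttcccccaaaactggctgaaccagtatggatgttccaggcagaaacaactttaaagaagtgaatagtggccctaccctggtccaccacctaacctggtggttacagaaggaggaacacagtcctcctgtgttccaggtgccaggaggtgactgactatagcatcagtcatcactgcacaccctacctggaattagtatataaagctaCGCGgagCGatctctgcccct
These windows hold 4 CG sites for UPK1A, 12 for TIMP1, 23 for GABRA2 and 3 for A2ML1. Both genes at the extremes, UPK1A and GABRA2, thus stand on different sides of the median of 18 over the 13862 tested genes with a promoter sequence. The methylation of these sites was not measured.

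Over the passing genes, the median number of CG sites was 21 in the higher and 16 in the lower group, and 21 in genes above the median level. Leaving out genes in the runs of neighbours described below, it was 19.5 for higher and 11 for lower genes. A window with fewer than 5 CG sites was held by 63 of 189 such lower genes (33.3%), 20% of the higher, 18.7% of all and 6.28% of genes above the median level. The letters TATAAA, searched on both strands, occurred in 10.6% of the lower and 12.2% of the higher genes outside runs and in 8.35% of all. These shares describe the sequence windows, with no test.

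Gene lists were read by the number of members that passed, beside the 2.90% of all genes. The lists were chosen with earlier results of these data known. Of all passing genes, 406 (80.2%) were among the 8724 genes above the median level. The 2.90% is not matched to the lists for level, so the shares are descriptions, and an excess in the lists was not tested. Over the 26 lists of functions, 53 of 604 measured members passed (8.77%), 19 higher and 34 lower in clone 75, and 14 of the 53 lay within the spans of the runs of neighbours. The medians of the lists ran from -0.09 to 0.20, against 0.01 for all genes.

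Markers of intestinal stem cells and Wnt targets went both ways. Of 21 measured, 3 were higher and 3 lower in clone 75, with a median of 0.02. LGR5, the R-spondin receptor that marks crypt base stem cells, read 4.82 and 4.98 in clone 66, 6.25 and 5.96 in clone 75, and 6.12 and 6.0 in the control (difference 1.21, SE 0.14, adjusted p = 2.49e-06). SMOC2, another stem cell marker, read 5.46 and 5.27, 6.40 and 6.46, and 6.64 and 6.61 (1.07, adjusted p = 0.00142). Clone 66 was below both scrambled arrays for each of them, and for SMOC2 clone 75 was below them too, by less. In contrast, the Wnt targets APCDD1 and LEF1 were lower in clone 75. APCDD1 read 7.94 and 8.17 in clone 66, 6.92 and 6.99 in clone 75, and 7.78 and 7.81 in the control (-1.10, adjusted p = 5.38e-05), and LEF1 read 5.52 and 5.39, 4.59 and 4.57, and 4.81 and 4.55 (-0.87, adjusted p = 0.00064). The scrambled arrays were near clone 66 for APCDD1 and near clone 75 for LEF1. In the lines with control shRNA and DPPA3 shRNA, LEF1 (means 5.31 and 5.53) was near clone 66. Its position thus depends on the line taken as control.

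Of 26 markers of absorptive enterocytes, 5 were lower and 2 higher in clone 75, with a median of -0.06. GUCA2A, the hormone guanylin, read 6.43 and 6.20 in clone 66, 4.95 and 4.72 in clone 75, and 4.98 and 5.03 in the control (difference -1.48, adjusted p = 2.77e-06). MYO1A, a brush border myosin, read 6.23 and 6.14, 5.11 and 4.99, and 5.27 and 5.13 (-1.13). CEACAM7, an adhesion protein of the differentiated colonic surface, read 8.96 and 8.78, 6.94 and 6.90, and 7.85 and 7.68 (-1.95, SE 0.23, adjusted p = 4.03e-06). Clone 66 was above the control in all 3 genes, while for GUCA2A and MYO1A clone 75 was close to the control. With control shRNA and DPPA3 shRNA, CEACAM7 (means 6.55 and 6.79) was near clone 75, and MYO1A (5.43 and 5.82) lay between the clones. ANPEP, a brush border aminopeptidase on chromosome 15, went the other way, with 3.34 and 3.18 in clone 66 and 4.30 and 4.36 in clone 75 (1.07, adjusted p = 9.31e-05).

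The other epithelial lists changed by few members. All 4 passing genes of the adhesion list (25 measured) were CEACAM members lower in clone 75, namely CEACAM7, CEACAM1 (-0.90), CEACAM6 (-0.76) and CEACAM5 (-0.70); they are close paralogs and may share signal. Among secretory markers, 1 of 17 goblet cell genes was lower, TFF1, a secreted trefoil peptide (-0.62), and its call was lost whichever of the 4 arrays was left out (adjusted p up to 0.208). Among 17 enteroendocrine and Paneth cell genes, PLA2G2A, an antibacterial phospholipase, was lower, with 9.71 and 9.56 in clone 66, 8.52 and 8.35 in clone 75, and 10.22 and 9.99 in the control (-1.20, adjusted p = 5.45e-06). The BMP pseudoreceptor BAMBI was the only one of 25 Notch and BMP genes that passed (-1.28, adjusted p = 0.000147).

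Genes of drug transport and metabolism had 2 higher and 4 lower of 30 (median -0.06), with GSTA1 and CYP4X1 foremost. The aldehyde dehydrogenases ALDH1A1 (-0.65) and ALDH3A1 (-0.65) were also lower. The call of ALDH1A1 was lost without clone 75 replicate 2 (adjusted p = 0.0569) and that of ALDH3A1 without clone 66 replicate 1 or clone 75 replicate 1 (adjusted p up to 0.132). Of 18 NRF2 targets and aldo-keto reductases, 2 were lower, AKR1E2 and AKR1C3 (-1.01, adjusted p = 2.3e-05), both on chromosome 10, and 2 higher, HMOX1 (0.57) and GCLC (0.48). Both of the latter lost their call whichever array was left out (adjusted p up to 0.513 and 0.161).

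Receptor tyrosine kinases and their ligands had 4 higher and 1 lower of 29. EGFR read 3.85 and 3.98 in clone 66, 4.74 and 4.62 in clone 75, and 4.39 and 4.48 in the control (difference 0.77, adjusted p = 0.000759). IGF1R, the receptor for insulin-like growth factors on chromosome 15, read 4.88 and 4.42 in clone 66, 5.77 and 5.66 in clone 75, and 5.61 and 5.55 in the control (1.07, adjusted p = 0.000967). The scrambled arrays lay between the clones in both, and the IGF1R call was lost without clone 66 replicate 2 (adjusted p = 0.0619). Of 24 integrins, laminins and matrix genes, 2 were lower, TIMP1 and the integrin chain ITGB1 (-0.75, adjusted p = 0.000256), and ITGAV was higher (0.65) with its call lost whichever array was left out (adjusted p up to 0.298).

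Of 34 genes of G2 and mitosis, 2 were higher and 2 lower (11.8%, median 0.02). PRC1, a spindle midzone protein on chromosome 15, was higher by 0.61 (adjusted p = 0.00121), and FOXM1, a mitotic transcription factor on chromosome 12, lower by -0.55, a call lost without clone 66 replicate 1, clone 66 replicate 2 or clone 75 replicate 1 (adjusted p up to 0.237). Of 38 genes of S phase and DNA replication (median 0.12), only MCM10 passed (2.63% of the list, -0.71, chromosome 10), and it lost its call without the same arrays (adjusted p up to 0.475). Among 33 hypoxia and HIF targets (median -0.07), only EGLN3, an oxygen sensor on chromosome 14, passed, with 4.81 and 4.45 in clone 66, 3.83 and 4.01 in clone 75, and 5.02 and 4.83 in the control (-0.72, adjusted p = 0.0276). Its call was lost without clone 66 replicate 1 or either array of clone 75 (adjusted p up to 0.413).

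No member passed among 24 germline and cancer-testis genes, 21 p53 targets, 25 cell-cycle inhibitor and quiescence genes, 24 genes of the unfolded protein and integrated stress response and 15 mesenchymal genes in limma. At an unadjusted p under 0.05 the counts were 0, 3, 1, 4 and 0 in that order. Among 15 imprinted genes only PEG10 passed, and among 16 genes of the DNA methylation machinery only TRIM28, a corepressor, which was higher (0.58) but lost its call without either array of clone 66 or clone 75 replicate 2 (adjusted p up to 0.254). Of 32 interferon genes, IFI27 (-1.02) and OAS1 (-0.58) were lower. IFI27 lost its call without clone 66 replicate 2 or clone 75 replicate 1 (adjusted p up to 0.14), and OAS1 without either array of clone 66 or clone 75 replicate 2 (adjusted p up to 0.176).

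The remaining lists gave 1 or 2 calls each. Of 23 ribosome biogenesis genes, which had a median of 0.20, the nucleolar proteins NOLC1 (0.50) and NOP58 (0.47) were higher, and both lost their call whichever array was left out (adjusted p up to 0.17 and 0.387). IDI1, an enzyme of the cholesterol pathway on chromosome 10, was the only one of 24 genes of its list to pass (-0.68), a call lost without clone 66 replicate 1 (adjusted p = 0.0517). Among 22 immediate early genes SPRY2, a feedback inhibitor of growth factor signalling on chromosome 13, was lower (-0.74), a call lost without clone 66 replicate 1 or either array of clone 75 (adjusted p up to 0.115). Among 19 HOX and intestinal transcription factors HOXB9 was lower (-0.58), a call lost without clone 66 replicate 2 or clone 75 replicate 1. It was also lost with all clone arrays kept, when only the knockout experiment or only the clones were fitted.

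**Figure D3:**
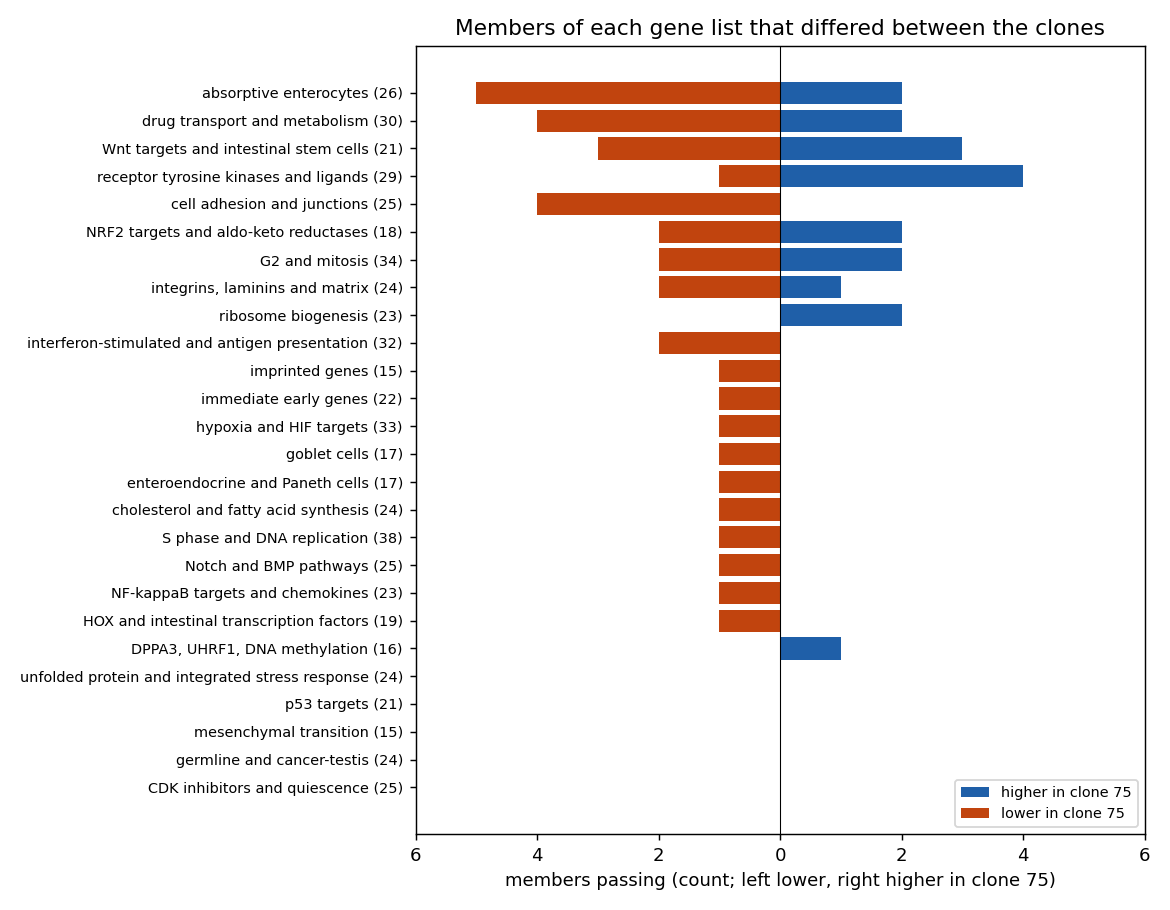
Number of members of each gene list that passed, to the right for those higher in clone 75 and to the left for those lower, with the number measured in brackets. The largest counts are 5 lower for absorptive enterocytes and 4 higher for receptor tyrosine kinases and ligands.

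Many of the differences lay side by side on chromosomes. Genes above the median level were placed in RefSeq order, and a run was a stretch where the running median over 21 genes passed 0.2 log2 in size. The 8 runs held 401 of the 8720 genes placed in order (2.30% of all tested). They held 153 of the 506 passing genes (30.2%), 50 higher and 103 lower in clone 75. Outside them, 353 of 17047 genes passed (2.07%). Only genes above the median level could lie in a run, and such genes made up 406 of the 506 passing genes. The 2.30% and the 2.07% also count dim genes, so they are not matched to the runs for level. The runs were found from the same differences that decide which genes pass, so a high passing share in them is partly fixed in advance. Genes counted as outside runs, here and elsewhere, still include dim genes within the spans and genes at chromosome ends. Among these are 7 passing genes in the first 10 of chromosome 10. The runs are a description with no test.

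The most densely affected run lay on the short arm of chromosome X, from NYX to NUDT10. Of its 45 genes, 40 were lower in clone 75 and 33 passed, with a median of -0.73. Relative to the 8 other untreated 3D arrays, the median over the run was 0.73 and 0.79 in clone 66 and -0.01 and 0.05 in clone 75, so clone 66 was the clone apart. TIMP1 lies in this run, as do HDAC6, a cytoplasmic deacetylase, and MAOA, a monoamine oxidase. TIMP1 differed from the run as a whole, since clone 75 (5.75 and 5.60) was also well below the control (6.91 and 6.68). HDAC6 read 6.57 and 6.67 in clone 66, 5.23 and 5.55 in clone 75, and 5.57 and 5.49 in the control (difference -1.23, adjusted p = 4.4e-05), and MAOA 7.36 and 7.51, 6.23 and 6.20, and 6.41 in both control arrays (-1.22, adjusted p = 2.32e-06).

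On the short arm of chromosome 10 the departure was in clone 75. The run from AKR1C1 to ZNF33A held 65 genes with a median of -0.73, of which 43 passed, all lower in clone 75. Its median was 0.05 and 0.02 in clone 66 and -0.67 in both arrays of clone 75. The first 10 genes of the chromosome, which the running median cannot centre on, had a median of -0.69 with 7 lower. NUDT5, a nucleotide hydrolase, read 5.20 and 5.33 in clone 66, 4.19 and 3.76 in clone 75, and 5.10 and 5.40 in the control (-1.29, adjusted p = 0.000109). ST8SIA6, BAMBI, AKR1C3, AKR1E2, ITGB1 and MCM10 lie in this stretch. The same run was low in the induced DPPA3 line, at -0.64, -0.47 and -0.68 in 3D and -0.51, -0.54 and -0.43 in 2D, against -0.03, -0.09 and 0.04 in 3D and -0.18, -0.05 and -0.05 in 2D in its control line.

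On the long arm of chromosome 15 a long run was higher in clone 75 through low values in clone 66. From PYGO1 to TTC23 it held 170 genes with a median of 0.38, 156 of them above 0 and 50 passing. Its median was -0.38 and -0.42 in clone 66 and -0.01 and -0.03 in clone 75. SLCO3A1 (4.30 and 3.72 in clone 66, 5.10 and 5.52 in clone 75), IGF1R, PRC1 and GCNT3, a mucin glycosyltransferase (1.03, adjusted p = 0.000109), lie in it. GCNT3 differed from the run as a whole, with clone 75 (7.58 and 7.45) above the control (6.86 and 6.56) and clone 66 (6.53 and 6.44) near it. The last 10 genes of the chromosome had a median of 0.44.

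Further runs lay on chromosomes 13 and 14. On the long arm of chromosome 13, 49 genes from DIAPH3 to TUBGCP3 had a median of -0.34 and 12 passed, with clone 66 apart at 0.39 and 0.37 and clone 75 at 0.00 in both arrays. It contains DOCK9, an exchange factor for CDC42, which read 6.75 and 6.56 in clone 66 and 5.47 and 5.41 in clone 75 (-1.22, adjusted p = 2.62e-06), and the small GTPase RAP2A (-1.12, adjusted p = 1.45e-05). On the long arm of chromosome 14, 19 genes from HEATR5A to PAX9 had a median of -0.55 and 9 passed, with clone 75 apart at -0.46 and -0.59 and clone 66 at -0.02 and -0.17. SRP54, a subunit of the signal recognition particle, read 6.61 and 6.39 in clone 66, 5.60 and 5.58 in clone 75, and 6.62 and 6.63 in the control (-0.91, adjusted p = 0.000145). NFKBIA, the inhibitor of NF-kappaB, was the only one of 23 genes of its list that passed (-0.68, adjusted p = 0.00131), lies in this run with EGLN3, and lost its call without clone 75 replicate 2 (adjusted p = 0.0526).

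A run on the short arm of chromosome 12 ended beside the targeted gene. From FKBP4 to LPCAT3 it held 41 genes with a median of -0.30, 36 of them below 0, and stopped 4 genes short of DPPA3 in the order of genes above the median level. The position of DPPA3 was examined after this run was seen. Of the 55 such genes between the start of the chromosome and DPPA3, 50 were below 0, with a median of -0.30, and 6 passed, all lower in clone 75. Of the next 55 genes beyond DPPA3, 27 were below 0, with a median of 0.01, and 3 passed, all lower. On the side before DPPA3 the median against the 8 other arrays was 0.03 and 0.04 in clone 66, -0.29 and -0.25 in clone 75, and -0.03 and -0.11 with the scrambled guide. Beyond DPPA3 it was 0.10 and 0.02, 0.10 and 0.01, and 0.06 and 0.02. The shift was thus in clone 75, and its size was below that of the X and 10 runs. Of single genes in the run, CRACR2A (-0.78), TULP3, PTMS and FOXM1 passed, and each lost its call with 3 or more of the 4 arrays left out in turn (adjusted p up to 0.639, 0.248, 0.453 and 0.237). For CRACR2A and FOXM1 these were both arrays of clone 66 and clone 75 replicate 1. Both genes also lost their call when only the 4 clone arrays were fitted. Runs of 11 genes on chromosome 16, from PIEZO1 to CHMP1A (median -0.45, 2 passing), and of 1 gene on chromosome 19, ZNF776 (0.45, not passing), complete the set. The last 10 genes of chromosome 19 had a median of 0.25, and TRIM28 was the only gene among them that passed.

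**Figure D4:**
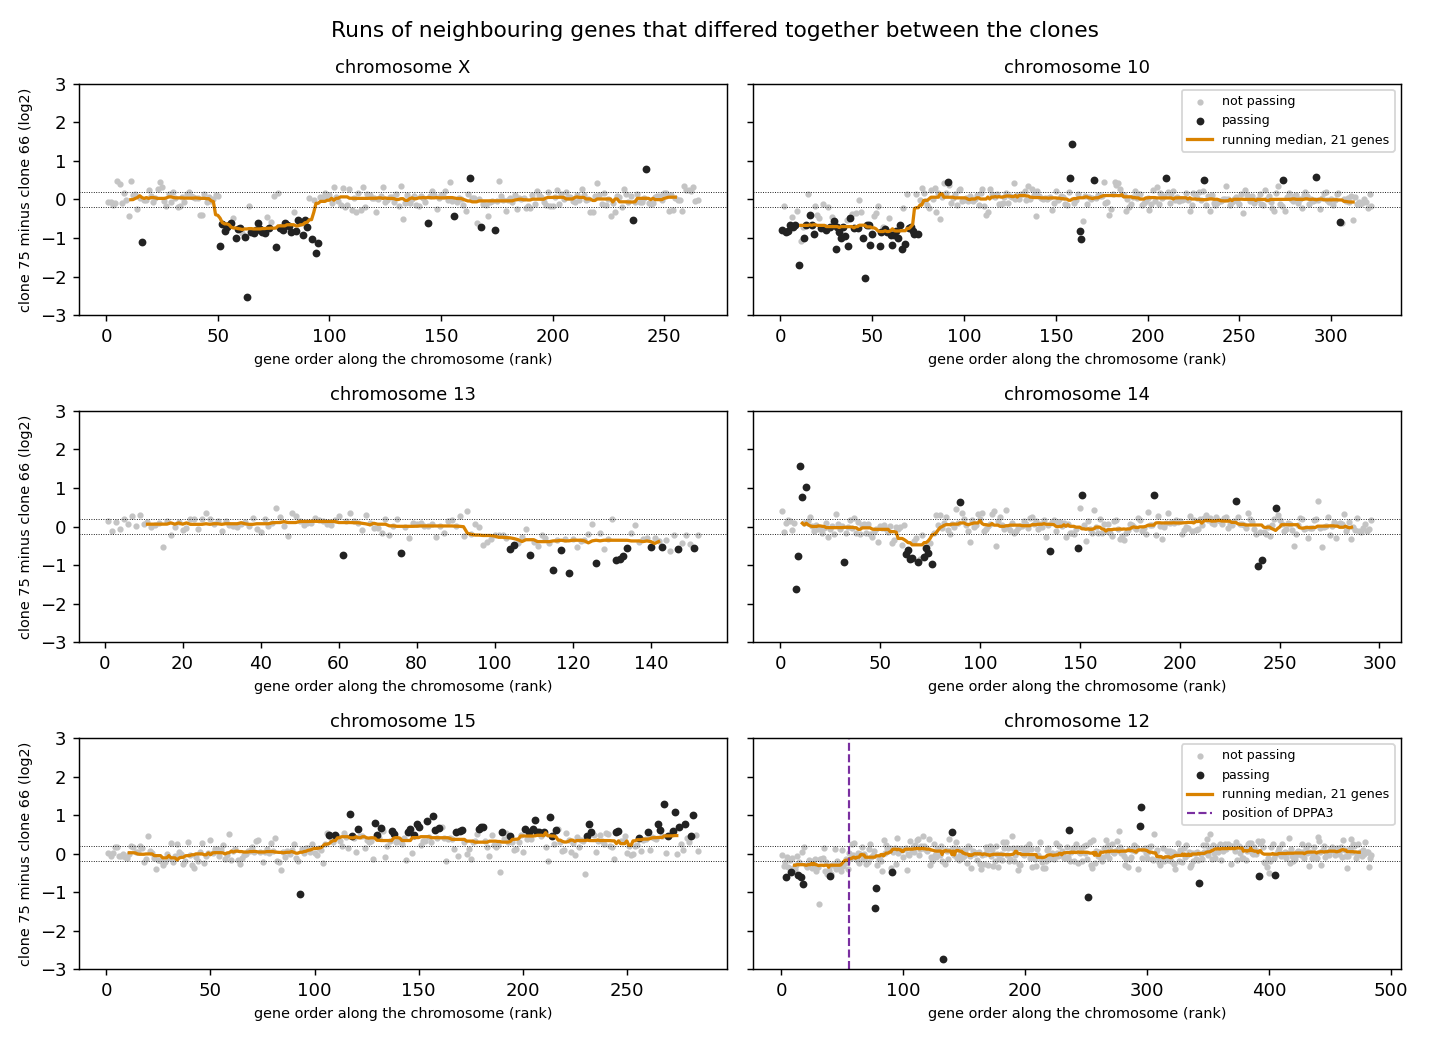
Difference between the clones (clone 75 minus clone 66, log2) for genes above the median level in their order along 6 chromosomes, with passing genes in black and the running median over 21 genes in orange. Dotted lines mark 0.2 and -0.2, and the dashed line on chromosome 12 marks DPPA3, before which the running median is near -0.30.

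**Figure D5:**
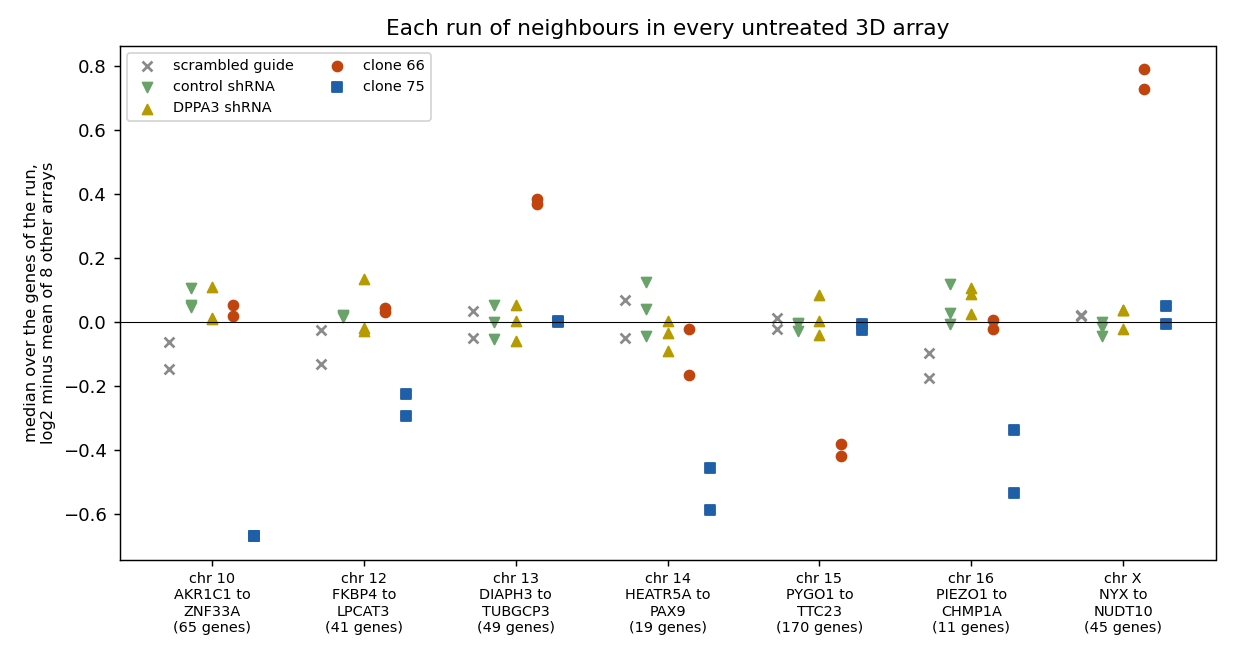
Median over the genes of each run in every untreated 3D array, as log2 value minus the mean of the 8 other arrays, for the 7 runs of more than 1 gene. Clone 66 stands apart on chromosomes X, 13 and 15, and clone 75 on chromosomes 10, 12, 14 and 16.

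The differences between the clones were set beside comparisons that share none of their 4 arrays. Across the 17448 genes, they correlated with the difference between the induced DPPA3 line and its control line at Pearson r = 0.0847 in 3D and 0.0993 in 2D (Spearman rho = -0.0002 and 0.0414), and with that of DPPA3 shRNA over control shRNA at r = -0.006 (rho = -0.0098), as descriptions across genes. Outside runs, Pearson r was 0.06 in 3D and 0.078 in 2D. Of all 345 genes lower in clone 75, 206 were below 0 in the induced line in 3D (median -0.08), 184 in 2D (median -0.02) and 169 in the shRNA comparison (median 0.00). Of the 242 lower genes outside runs, these counts were 141 (median -0.0717), 120 (0.0043) and 117 (0.0053). The medians over all genes were -0.0095, 0.0045 and -0.0006. Of the 15 lowest genes, 13 were below 0 in the induced line in 3D, with a median of -0.77 against -0.01 for all genes, 13 in 2D and 8 in the shRNA comparison. NELL2 was -3.08 in 3D and -3.40 in 2D in the induced line relative to its control, TIMP1 -1.75 and -1.68, and UPK1A -1.50 and -1.20. CEACAM7 differed in sign between the cultures, at 1.06 and -0.27. Of the 15 highest genes, 9 were above 0 in the induced line in 3D and 8 in 2D, with LGR5 at 0.59 and 1.02.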

How the data were processed

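Per the submitters' processing notes, the authors used Partek 6.6 and RMA, and the deposited table holds log2 values. RMA subtracts background, brings arrays to a common distribution and combines a set's probes. No build for the probe annotation was named (not given in the sources used here). RNA was extracted with Trizol and labelled by an Affymetrix protocol, per the labels' protocols. The table held 20276 probe sets, of which 18062 had 1 gene symbol in the platform annotation, 1288 several and 926 none. The single-gene probe set with the highest mean was used for each of 17448 genes, 468 of which had several. Of the single-symbol probe sets, 18036 matched RefSeq by Entrez identifier, which gave gene order and promoter sequences.

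One linear model with a coefficient for each of the 9 groups was fitted to all 24 arrays with limma 3.58.1 in R 4.3.3 (15 residual and 9.81 prior degrees of freedom, median SE 0.15), 2-sided, with Benjamini-Hochberg adjustment over all genes and a threshold of 0.05. The number of arrays limits the precision: an exact permutation test of 2 arrays against 2 cannot go below p = 0.333. The fit was tested on simulated data. Runs, promoter windows and positions against other arrays were computed in Python 3.11.15 with pandas 2.3.3.

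The clones, lists and rules were chosen with earlier results of these data known. Genes were named by a rule: 8 genes of the DPPA3 and cell-cycle context always, the 15 highest and 15 lowest passing genes without array overlap whose higher clone mean was above the median gene, up to 4 passing members of each list by smallest p and up to 3 of each run by size. Symbols of the LOC, LINC, numbered open reading frame or FAM kind were left out, as were small RNAs, of which 2 passed. CD68, ZNF776, the genes at run ends and the position of DPPA3 were singled out after their values were seen. Alternatives varied the arrays in the fit, the variance prior, dim genes, probe sets, normalization, the replicate block and each array in turn.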

Additional observations from a re-analysis of the deposited data

Results flagged for a closer look

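The 506 genes that passed between clone 75 and clone 66 are also the genes whose difference from the scrambled guide differed between the clones, since the control cancels in that difference. In 263 of them the clones lay on opposite sides of both scrambled arrays, so that one clone was above the control and the other below it; that position is a description and was not tested. UPK1A, NELL2, PCP4 and TIMP1, with clone 66 above, and GABRA2, A2ML1 and SATB1, with clone 75 above, are among the 263. Against the range of the 8 other untreated 3D arrays, however, clone 66 lay within for GABRA2 and SATB1, and clone 75 within for A2ML1.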

How the results depend on the processing

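The count of passing genes was 506 and stayed within 1.5 times that under 8 changes of the model, the values or the genes tested, from 450 (only genes above the median level) to 574 (replicate block in the 6 arrays of the knockout experiment). The replicate numbers did not pair the samples: deviations from the group means correlated between same-numbered arrays at 0.094, 0.009 and 0.056, and the block changed the count from 543 to 574. With 1 array left out, 259 to 270 genes passed, 57 to 80 higher and 179 to 213 lower, and 245 to 258 of the 506 remained, since one clone then rests on 1 array. In these 12 settings none of the 506 genes changed sign where tested, and 163 (32.2%) passed in all 11 settings run on all genes. Of 85 passing named genes, 56 kept their call in each of these settings in which they were tested, including the 15 highest and 15 lowest, and 10 of the 56 were too dim to be tested in the setting on genes above the median level. Some named genes lost their call with all 4 clone arrays kept. With only these 4 in the fit, they were CRACR2A, ECT2, FOXM1, GCLC, HMOX1, HOXB9, MCM10, NOLC1, NOP58 and TRIM28. With the 6 arrays of the knockout experiment, they were CRACR2A, HOXB9, NOP58 and OAS1. Such calls depend on which arrays set the spread. With the genes in runs left out of the test, 302 passed. Genes in runs numbered 401, 488 with a running median over 11 genes (33 runs) and 330 with a threshold of 0.3 (13 runs). Signals near background, such as that of DPPA3, limit what the arrays can show, and 2 arrays per clone cannot separate culture from clone.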

Other observations

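Genes that passed outside the named groups included metallothioneins, which bind zinc and copper, in both directions. These were chosen after their values were seen. MT1F read 8.61 and 8.78 in clone 66, 9.57 and 10.06 in clone 75, and 9.38 and 9.56 with the scrambled guide (difference 1.12, SE 0.15, limma adjusted p = 3e-05). MT1G (0.72), MT1H (0.71), MT1X (0.64) and MT2A (0.40) were also higher, while MT1M (-1.06) and MT3 (-0.61) were lower. These genes are similar in sequence and may share signal. S100A4, a calcium-binding protein, read 8.38 and 8.20 in clone 66, 6.47 and 6.79 in clone 75, and 6.52 and 6.76 in the control (-1.66, SE 0.16, adjusted p = 1.31e-07). GAL, the neuropeptide galanin, read 7.32 and 7.21, 5.58 and 5.63, and 7.01 and 7.05 in the control (-1.65, SE 0.17, adjusted p = 4.13e-07). Clone 66 was apart from the control for S100A4 and clone 75 for GAL. The membrane mucins MUC12 (0.87, adjusted p = 0.0105) and MUC3A (0.73, adjusted p = 0.000741) were higher in clone 75.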
